A study of Homo sapiens with 4 samples.

Results

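ARID3B and KDM4C peaks were compared with each other in OECM1 cells in which ARID3B had been targeted with Cas9. OECM1 is a long-established line grown from a human head and neck cancer. The members were all peaks on chromosomes 1 to 22 in the 2 lists from these cells, 4577 with the ARID3B antibody and 1742 with the KDM4C antibody, or 6319 of the 11483 peaks in the 4 lists of the series. Chromatin immunoprecipitation with sequencing was used, in which DNA bound by an antibody's target is isolated and sequenced, and a peak is a stretch with more sequenced tags than its surroundings. The edited cells had received ARID3B-Cas9 and the control cells Cas9-ctrl, both were cultivated in RPMI with 10% fetal bovine serum, and each combination of cells and antibody is 1 library. The titles call the targeting a knockdown and the series title a knockout. The labels used here do not say whether the edited cells were a pool or 1 clone, and the ARID3B protein left in them was not analysed here.

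ARID3B binds DNA through an AT-rich interaction domain and takes part in the control of gene expression in development and in tumours. KDM4C is a demethylase that removes methyl groups from lysines of histone H3. Enzymes of this kind reach chromatin through their own reader domains or through partner proteins, so a DNA-binding protein and a demethylase can have peaks at the same place. The comparison asked what the 2 antibodies still shared, and how exactly, after ARID3B had been targeted.

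The ARID3B library held 20878112 tags after filtering and the KDM4C library 16209985, and the median peak held 12 tags in each. For each antibody the library of control cells was the deeper one, at 24439463 tags for ARID3B and 20668533 for KDM4C. These had 3095 and 1341 peaks on the same chromosomes. No input library entered the peak calling, so binding by both proteins and stretches that gather tags with any antibody cannot be told apart. With 1 library in each group there was no test over samples, and the 95% intervals below cover counting error only. They treat peaks and pairs as independent, though many lay close together or shared a peak, so they can be too narrow.

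A region was counted as co-called when an ARID3B and a KDM4C peak overlapped by at least 1 bp. In edited cells, 559 of the 1742 KDM4C peaks were co-called (32.1%, exact Clopper-Pearson interval 29.9 to 34.3), and so were 581 of the 4577 ARID3B peaks (12.7%, 11.7 to 13.7). The same count in control cells gave 496 of 1341 KDM4C peaks (37.0%) and 488 of 3095 ARID3B peaks (15.8%). With only peaks that scored 100 or more in every list, the order of the cells turned for KDM4C, at 86.7% in edited and 78.1% in control cells. For ARID3B it did not, at 61.3% and 63.1%. When the ARID3B list was shortened to its 1742 highest-scoring peaks, as many as KDM4C had, 29.2% of them were co-called. Joined where they overlapped, the peaks formed 548 co-called regions in edited cells and 474 in control cells.

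The co-called peaks held most of the tags that lay in KDM4C peaks. They held 66846 of these tags in edited cells (80.6%), though they were 32.1% of the KDM4C peaks. For ARID3B they held 76086 tags, or 51.4% of those in peaks. In control cells the shares were 80.6% for KDM4C and 58.1% for ARID3B.

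Sharing followed the deposited score of a peak, a transform of the caller's p-value (10 times its negative log10) that starts at 50. Among KDM4C peaks of edited cells that scored under 60, 109 of 1036 were co-called (10.5%). From 60 to 80 it was 124 of 351 (35.3%), from 80 to 100 it was 73 of 92 (79.3%), and from 100 to 200 it was 143 of 153 (93.5%). From 200 on, all 110 were co-called (lower limit 96.7%). The ARID3B peaks began lower, at 73 of 2866 under 60 (2.55%), and ended at 164 of 169 (97.0%) from 200 on. The plot of co-calling by score shows ARID3B below KDM4C in every class. The ARID3B list is the longer of the 2, which by itself lowers the share of it that the other list can cover.

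**Figure D1:**
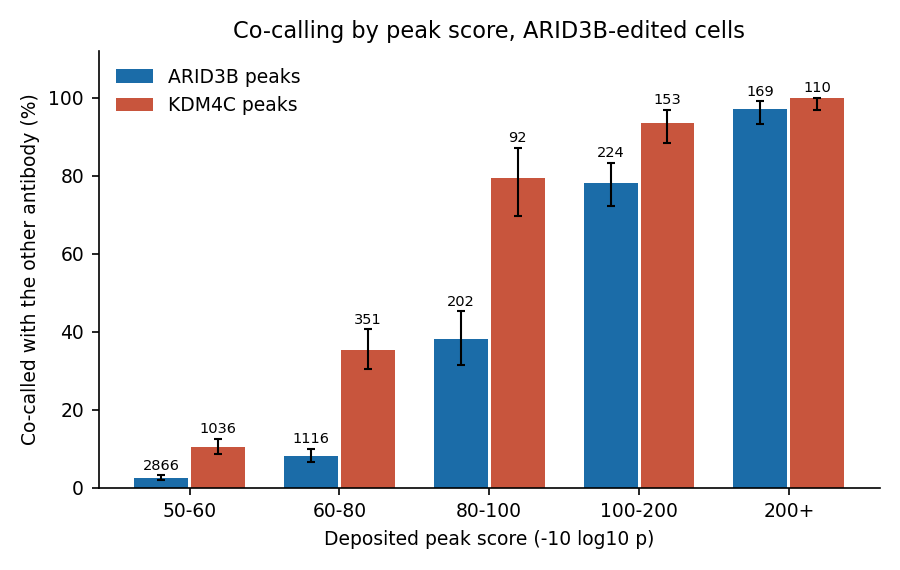
Share of ARID3B and KDM4C peaks of edited cells that were co-called with the other antibody, by deposited score class, with the number of peaks above each bar and exact 95% counting intervals. The share rose from 10.5% to 100% for KDM4C and from 2.55% to 97.0% for ARID3B.

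Weak peaks of the 2 antibodies differed in their partners. The 109 co-called KDM4C peaks under 60 had ARID3B partners with a median score of 69.8, and 23 of these partners reached 100. The 73 co-called ARID3B peaks under 60 had KDM4C partners with a median score of 59.3, of which 38 were also under 60 and 6 reached 100. In 39 pairs of edited cells both peaks scored under 60. The order was the same in control cells, with a median of 78.6 for ARID3B partners and 67.1 for KDM4C partners. The ARID3B library was the deeper one in both kinds of cells, and the part of depth was not tested. Of the 548 regions, 225 (41.1%) had a score of at least 100 with both antibodies.

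Most regions were simple. In 510 of the 548 (93.1%), 1 ARID3B peak met 1 KDM4C peak. ARID3B had more peaks than KDM4C in 27 of the other regions, KDM4C had more in 8, and 3 had equal numbers. In control cells this order was turned, with more ARID3B peaks in 11 regions and more KDM4C peaks in 19. The most divided region lay on chromosome 18 from 18515320 to 18520451 (GRCh37), where 4 ARID3B peaks met a single KDM4C peak of 5128 bp.

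The summit of a peak is the position with the highest pile of tags. Over the 592 overlapping pairs of edited cells, the ARID3B and KDM4C summits lay a median of 20 bp apart (exact order-statistic interval 17 to 24), and the middle 50% of pairs lay between 6 and 103 bp. They were within 50 bp in 394 pairs (66.6%, 62.6 to 70.3) and at the same base in 26. In control cells the median was 14 bp (12 to 17) over 510 pairs, and 71.2% of pairs (67.0 to 75.1) were within 50 bp. For each antibody the control library was the deeper one, and the part of depth in this difference was not tested. ARID3B summits lay at the higher coordinate in 303 pairs and at the lower in 263, with a median signed distance of 1 bp.

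**Figure D2:**
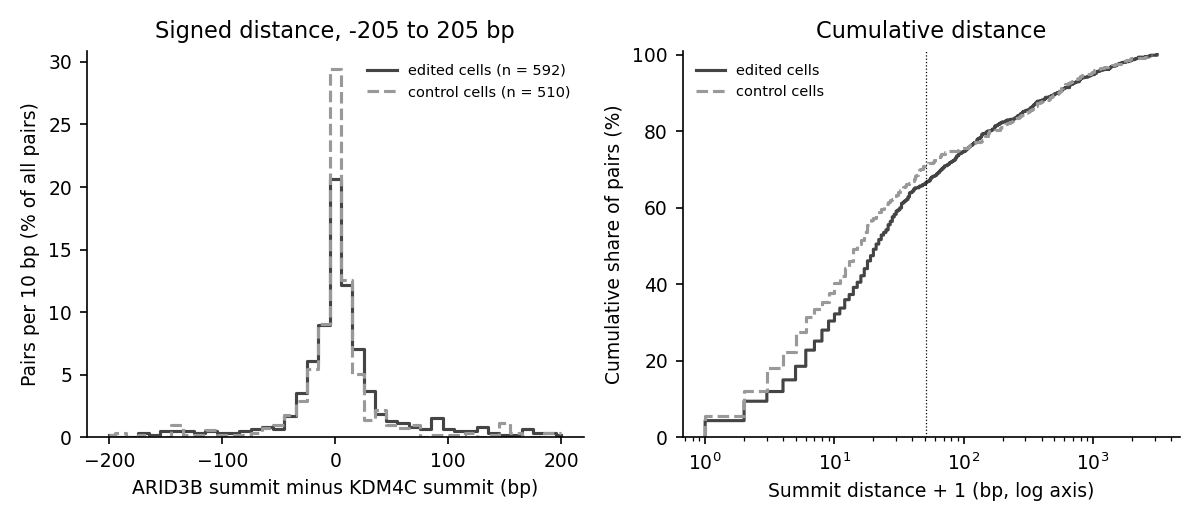
Distances between ARID3B and KDM4C summits of overlapping peaks, 592 pairs in edited and 510 in control cells. Left, signed distance in 10 bp bins as a percentage of all pairs, which peaks around 0 in both; right, cumulative share against distance plus 1 bp on a log axis, with the 50 bp limit dotted, below which 66.6% of edited and 71.2% of control pairs lay.

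Summit distance grew with the width of the peaks. This is partly fixed by the construction, since the peaks of a pair overlap and their widths limit how far apart the summits can lie. Where both peaks were at most 300 bp wide, the summits were a median of 12 bp apart and 91.1% of pairs were within 50 bp (83.8 to 95.8). Where the wider peak exceeded 2000 bp, the median was 574 bp (69 to 808) and 32 of 89 pairs were within 50 bp. Only 31 of the 592 pairs had summits more than 1000 bp apart, and in 30 of these the wider peak exceeded 2000 bp. Pairs whose lower score was under 60 had a median distance of 36 bp, against 15 bp for those with both scores at 100 or more. Pairs within 5 Mb of the unsequenced centromere gap of their chromosome lay closer, at 14 bp (11 to 18), than the others, at 27 bp (22 to 37).

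The largest separation was on chromosome 17, where the ARID3B peak from 25265833 to 25267199 had its summit 3126 bp from that of the KDM4C peak from 25263060 to 25266096. The region lies beside the centromere gap and had 2 peaks of each antibody. The second, on chromosome 8 from 49857608 to 49861354, had summits 2794 bp apart and lay 3.02 Mb from the gap, and control cells had an ARID3B but no KDM4C peak there. On chromosome 2 from 92322263 to 92326189, also at the edge of a gap, the ARID3B peak held 1205 tags and the KDM4C peak 1457, with summits 2706 bp apart. On chromosome 10 from 42596680 to 42600735 the distance was 2540 bp, with 1103 ARID3B and 2215 KDM4C tags. The peaks of the 4 pairs were between 1367 and 4044 bp wide, and their fold enrichments ran from 2.90 to 11.6, against a median of 10.2 for co-called peaks of either antibody. Fold enrichment here is the summit over the caller's local background in the same library.

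The shorter peak lay wholly inside the longer in 315 of 592 pairs (53.2%), and the overlap was under 50% of the shorter peak in 17. Where 1 peak enclosed the other, ARID3B was the inner peak in 219 pairs and KDM4C in 96. In control cells the order was turned, with ARID3B inside in 84 pairs and KDM4C inside in 188.

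Widths showed the same turn, and not only at shared peaks. Over the whole lists, the median width was 250 bp for ARID3B and 290 bp for KDM4C in edited cells. In control cells it was 290 and 270 bp. Co-called ARID3B peaks of edited cells had a median width of 399 bp and co-called KDM4C peaks 444 bp, and the median ratio of ARID3B to KDM4C width over pairs was 0.925 (0.889 to 0.948). The KDM4C peak was the wider one in 369 pairs and the ARID3B peak in 219. In control cells the ratio was 1.09 (1.06 to 1.13), with ARID3B wider in 322 pairs and KDM4C in 187. The fragment length that the caller used, which enters the width of every peak, moved with this: it was 79 bp for ARID3B and 95 bp for KDM4C in edited cells, and 86 and 82 bp in control cells. With that length subtracted from each width, which was tried after the data were seen, the ratios were 0.948 (0.898 to 0.984) and 1.10 (1.07 to 1.15). The tag length also differed, at 72 bp for KDM4C in edited cells and 75 bp in the other libraries. Subtraction removes only a fixed length, and the part of the fragment length in the turn was not tested.

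**Figure D3:**
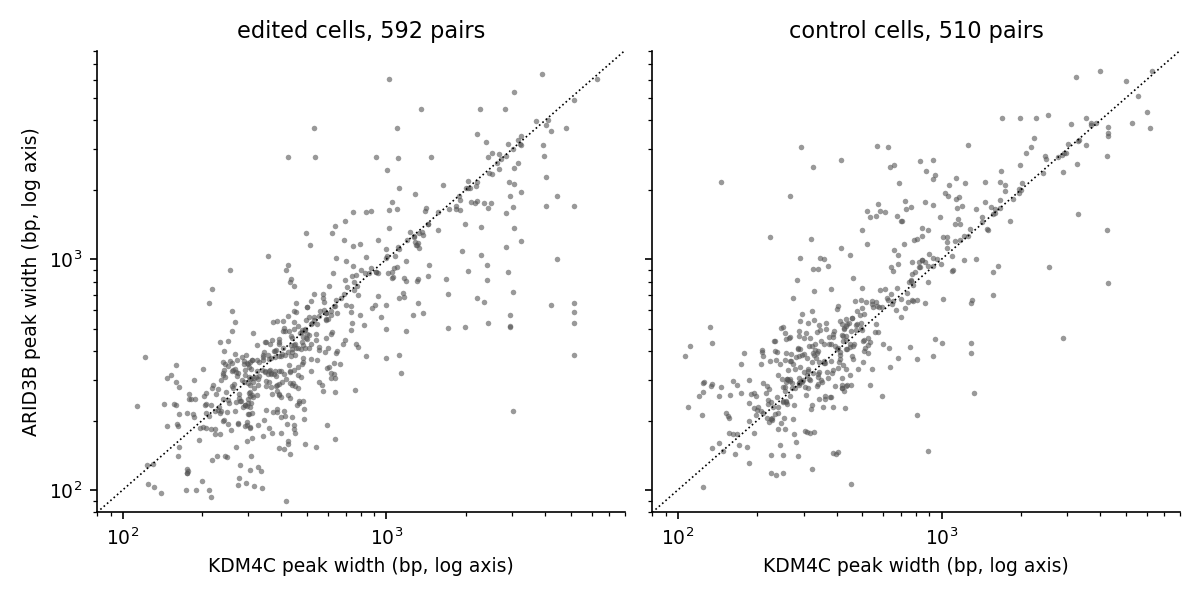
Width of the ARID3B peak against width of the KDM4C peak for each overlapping pair, both on log axes, in edited cells (left) and control cells (right), with equal width dotted. KDM4C was wider in 369 of 592 pairs in edited cells and ARID3B in 322 of 510 in control cells.

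Peaks without a partner were narrow. Those of KDM4C had a median width of 276 bp and those of ARID3B 244 bp in edited cells. In control cells these medians were 247 and 281 bp, so the turn was there without a partner too. Of the co-called KDM4C peaks of edited cells, 121 (21.6%) were wider than 1000 bp, against 14 of 1183 (1.18%) without a partner. For ARID3B these numbers were 117 of 581 (20.1%) and 64 of 3996 (1.60%). A co-called KDM4C peak held a median of 31 tags and one without a partner 10. The median fold enrichments were close, at 10.15 and 10.2 for KDM4C and 10.2 and 9.65 for ARID3B, so the co-called peaks stood out by width and tags more than by fold. For width this is partly fixed by the construction, since a wider peak can more easily overlap another. The co-called peaks also scored higher, at medians of 90.1 against 54.6 for KDM4C and 118 against 55.5 for ARID3B.

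The 5 pairs with the largest width ratio in each direction were examined. In 9 of these 10 pairs, the wider peak overlapped more than 1 peak of the other antibody. The 10 pairs were not all from different regions. Chromosome 18 from 18515320 to 18520451 and chromosome 4 from 49657119 to 49659900 each gave more than 1, with the same wide peak. On chromosome 4 from 49330778 to 49333786 a KDM4C peak of 3009 bp overlapped 3 ARID3B peaks, one of them 221 bp wide, a ratio of 13.6. The ratio ran the other way on chromosome 1, where an ARID3B peak from 2584151 to 2587862 (3712 bp, 333 tags) overlapped 2 KDM4C peaks, one of 533 bp with 37 tags, a ratio of 6.96.

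Co-called regions gathered near centromeres. Distance was taken to the centromere gap of each chromosome only. Regions far from it can thus still lie near other unsequenced stretches. In edited cells, 269 of 548 (49.1%, 44.8 to 53.4) lay within 5 Mb of a centromere gap, and 91 lay within 0.1 Mb. Of the peaks without a partner, 169 of 1183 KDM4C peaks (14.3%) and 528 of 3996 ARID3B peaks (13.2%) lay within 5 Mb. In control cells 253 of 474 co-called regions did (53.4%). Read the other way, 93 of 122 KDM4C peaks within 0.1 Mb of a gap were co-called (76.2%), against 51.1% from 1 to 5 Mb, 30.2% from 5 to 20 Mb and 19.2% (189 of 983) beyond 20 Mb. All of these are to be read against the 32.1% of the whole KDM4C list. ARID3B peaks fell from 71.1% within 0.1 Mb to 6.67% beyond 20 Mb.

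**Figure D4:**
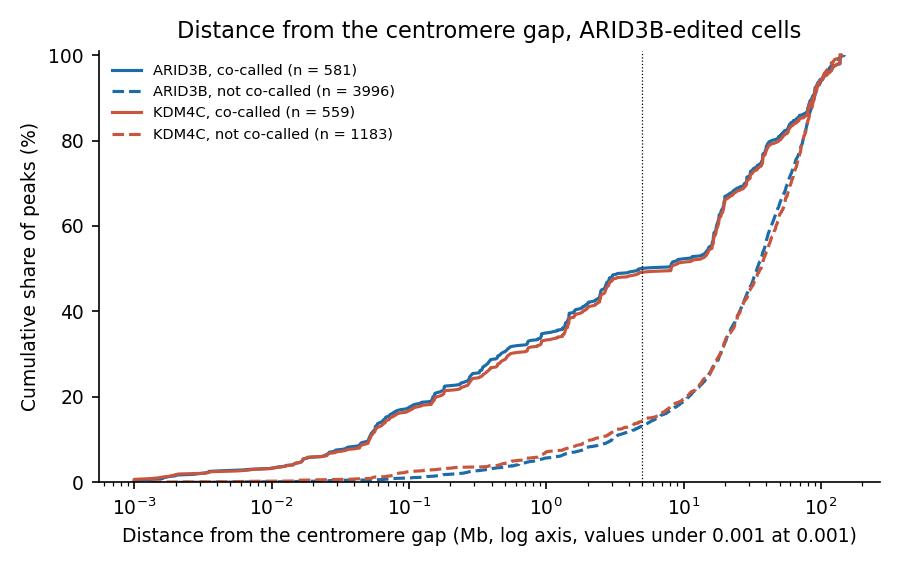
Cumulative share of ARID3B and KDM4C peaks of edited cells by distance from the centromere gap (log axis), for peaks co-called with the other antibody (solid) and not (dashed), with 5 Mb dotted. Of the co-called KDM4C peaks 49.2% lay within 5 Mb, against 14.3% of those not co-called.

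The score of a peak moved with this position, so the shares were also taken within score classes. Among KDM4C peaks under 60, 45 of 161 within 5 Mb of a gap were co-called (28.0%, 21.2 to 35.6) and 64 of 875 farther away (7.31%, 5.68 to 9.24). From 60 to 100 the shares were 66.4% and 34.0%. At 100 or more they met, at 135 of 140 (96.4%) and 118 of 123 (95.9%). Strong KDM4C peaks were thus co-called in nearly all cases at either position. For ARID3B the shares were 9.77% and 1.55% under 60, and 29.7% and 8.42% from 60 to 100. At 100 or more they were 88.9% (83.7 to 92.9) and 83.6% (77.6 to 88.5). Without any peak within 5 Mb of a gap, 279 co-called regions were left, which took in 21.9% of KDM4C and 7.72% of ARID3B peaks.

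The chromosomes differed in how much of their KDM4C list was co-called. Chromosome 21 had the highest share, 19 of 25 peaks (76.0%, 54.9 to 90.6), and 18 of its 19 co-called regions lay within 5 Mb of the gap. Chromosome 4 followed with 44 of 84 (52.4%) and chromosome 16 with 46 of 91 (50.5%). The lowest shares were on chromosome 13, at 6 of 74 (8.11%, 3.03 to 16.8), chromosome 6, at 7 of 80 (8.75%), and chromosome 14, at 5 of 50 (10.0%). Chromosome 13 had 188 ARID3B peaks, and 6 of these were co-called. In control cells chromosome 13 had 33 ARID3B and 18 KDM4C peaks, with 1 co-called region. The whole lists differed less, at 3095 control and 4577 edited ARID3B peaks, and 1341 and 1742 KDM4C peaks. Chromosomes 1 and 9 held the most co-called regions, 57 and 59.

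**Figure D5:**
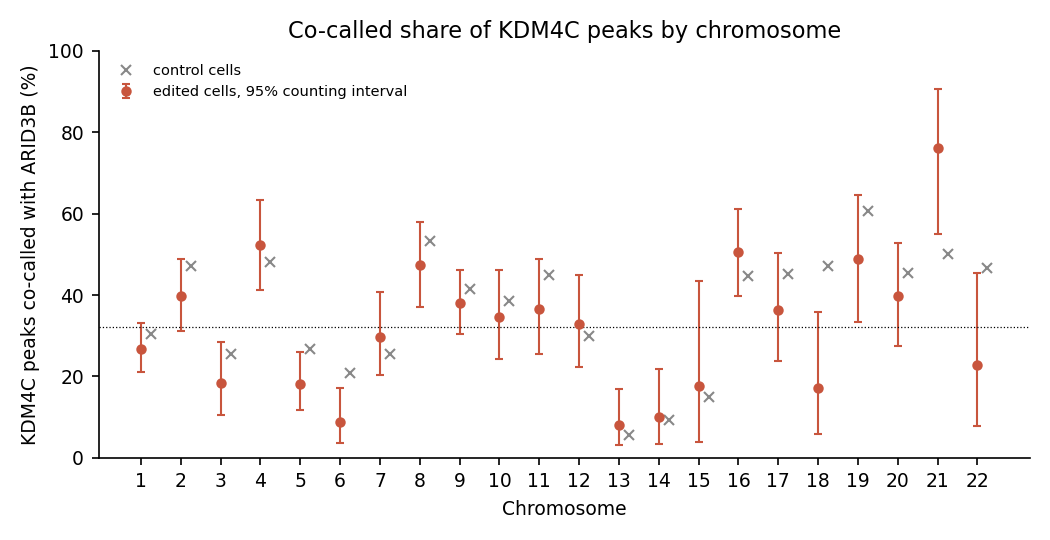
Share of KDM4C peaks co-called with ARID3B on each autosome in edited cells (points, exact 95% counting intervals) and control cells (crosses), with the 32.1% of all edited KDM4C peaks dotted. Chromosome 21 had the highest share in edited cells (76.0%) and chromosomes 13, 6 and 14 the lowest (8.11% to 10.0%).

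Co-called regions lay in runs. Of the 548, 352 (64.2%, 60.1 to 68.3) had another co-called region within 100 kb and 234 (42.7%) within 10 kb. Within 5 Mb of a gap 88.5% had a neighbour within 100 kb, and farther away 40.9%. Linked at 100 kb, the regions formed 284 runs, of which 196 held 1 region, and the 23 runs of 5 or more held 184 regions (33.6%). Peaks without a partner were more scattered, with 23.3% of KDM4C and 44.1% of ARID3B peaks having another peak of their own list within 100 kb, against 72.1% and 80.7% of co-called peaks. The ARID3B list is denser, which raises its share of near neighbours.

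The run with the most regions, on chromosome 16 from 33864770 to 34022896, held 20 co-called regions in 158 kb, and all 22 KDM4C peaks of that span belonged to them, as did 20 of its 27 ARID3B peaks. In control cells 17 co-called regions lay in the same span. A run on chromosome 1 from 121352163 to 121485491 had 14 regions, and one on chromosome 2 from 92245419 to 92326189 had 11. Runs of 10 regions each lay within 1 Mb of a gap on chromosome 10 (42527763 to 42742968) and chromosome 19 (27731828 to 27806074). Another run of 10, on chromosome 9 from 66800545 to 66978860, lay 16.5 Mb from the centromere gap. Its distance from other unsequenced stretches was not measured.

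Away from centromeres, the leading shared regions by fold enrichment were narrow single peaks. They were ranked by the lower of the 2 fold enrichments among regions more than 5 Mb from a gap, and each of the first 8 had also been called with both antibodies in control cells. The first, on chromosome 3 from 196625495 to 196625934, held 177 ARID3B and 155 KDM4C tags, and its summits were 3 bp apart in peaks of 385 and 341 bp. On chromosome 12 from 20704343 to 20704654 the summits were 1 bp apart, with 53 ARID3B and 31 KDM4C tags. On chromosome 9 from 70076519 to 70076845 they were 4 bp apart, though the KDM4C peak was 2.60 times as wide (327 against 126 bp). Chromosome 10 from 98561281 to 98561710 gave 11 bp, chromosome 5 from 71146697 to 71147056 gave 17 bp and chromosome 6 from 119558374 to 119558759 gave 18 bp. The last 2 had the next co-called region 10.2 and 28.5 Mb away, whereas on chromosome 9 it was 0.0262 Mb away. The remaining 2, on chromosome 8 from 70602144 to 70602617 and from 82754585 to 82754921, had distances of 27 and 61 bp. Narrowness was not particular to this position. Wide shared peaks also lay this far from a gap, such as an ARID3B peak of 6030 bp on chromosome 8 from 126601599 to 126607628. Narrow ones of high fold also lay near a gap, such as chromosome 2 from 92281220 to 92281621 (folds of 50.5 and 40.2).

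Most of the shared regions were shared in control cells too. Of the 548, 353 (64.4%, 60.2 to 68.4) overlapped a co-called region of control cells. A further 85 (15.5%) met an ARID3B peak alone there, 32 (5.84%) a KDM4C peak alone, 2 both but at separate places, and 76 (13.9%) neither. The regions shared in both kinds of cells were stronger, with a median lower score of 123, against 55.5 for the 76 that met no control peak. Of those 76, 56 had a lower score under 60, so that most were near the threshold in edited cells. In the other direction, 364 of the 474 co-called regions of control cells (76.8%, 72.7 to 80.5) were still co-called in edited cells. ARID3B alone was called at 59 of the others, KDM4C alone at 16 and neither at 35. More of these regions thus kept a peak with the ARID3B antibody than with the KDM4C antibody. The same order held in the other direction, at 85 against 32, and the ARID3B list was the longer in both kinds of cells. The edited KDM4C library was the shallowest of the 4, and the parts of its depth and of list length were not tested.

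The same contrast held peak by peak. Of the 559 co-called KDM4C peaks of edited cells, 392 (70.1%) overlapped a KDM4C peak of control cells and 448 (80.1%) an ARID3B peak. Of the 1183 KDM4C peaks without a partner, 43 (3.63%) and 50 (4.23%) did, and 1106 met no control peak of either antibody. Within the class under 60, 30 of 109 co-called KDM4C peaks (27.5%, 19.4 to 36.9) were present in the control KDM4C list. Of those without a partner, 18 of 927 (1.94%, 1.15 to 3.05) were. For ARID3B under 60 the shares were 32 of 73 (43.8%) and 84 of 2793 (3.01%).

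The leading co-called regions with no control peak had few tags. The first, on chromosome 16 from 62813947 to 62814331, held 12 ARID3B and 15 KDM4C tags, with fold enrichments of 16.4 and 17.0 and summits 17 bp apart. On chromosome 11 from 82111850 to 82112119 there were 10 and 11 tags and a distance of 16 bp, and on chromosome 16 from 63919153 to 63919405 there were 9 and 12 tags and 21 bp. Others were chromosome 19 from 56181688 to 56182026 (19 and 11 tags), chromosome 11 from 48948402 to 48948578 (12 and 11) and chromosome 20 from 59904264 to 59904542 (23 and 19). Across the 8 leading regions of this kind the summit distances ran from 1 to 29 bp. Their tags ran from 9 to 23 per peak, and the smallest peak in either edited list had 9.

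The 110 co-called regions of control cells that were not co-called in edited cells were mostly weak, with a median lower score of 59.9 against 108 for the 364 that were. Ranked by fold in control cells, the first was on chromosome 8 from 66563759 to 66564185, where control cells had 38 ARID3B and 29 KDM4C tags with summits 16 bp apart. Edited cells had only the ARID3B peak there. The next 4 had 12 to 22 tags with either antibody in control cells and lay within 1 Mb of a gap. One of them, on chromosome 20 from 26315260 to 26315646, kept only KDM4C.

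Peaks without a partner were also ranked by fold. The leading ARID3B peak, on chromosome 18 from 77772973 to 77773089, had 16 tags in 117 bp, a score of 196 and a fold enrichment of 26.2, and was present with the ARID3B antibody, but not with KDM4C, in control cells. A peak on chromosome 5 from 90445930 to 90446171 (15 tags, fold 21.3) and one on chromosome 20 from 19904903 to 19905225 (15 tags, fold 19.0) had the same pattern. The other 2 of the leading 5 did not: the peak on chromosome 11 from 77597468 to 77597739 (18 tags, fold 19.8) met peaks of both antibodies in control cells, and the peak on chromosome 4 from 128469440 to 128469580 (12 tags, fold 19.6) met neither. The leading KDM4C peak, on chromosome 9 from 67000912 to 67001358 (16 tags, fold 19.3), met no control peak. The second, on chromosome 12 from 95231 to 95795 (34 tags, score 163), met a KDM4C and an ARID3B peak in control cells, as did the other 3 of the leading 5. Of the ARID3B peaks that scored at least 100, 54 had no KDM4C partner, and 36 of these 54 were present with the ARID3B antibody in control cells. Among KDM4C peaks of that score, 10 had no ARID3B partner.

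Most peaks without a partner were not near misses by position. Near misses by score cannot be seen, since a partner under the caller's cutoff is not in the lists. The nearest ARID3B peak lay within 1 kb of 28 of the 1183 KDM4C peaks without a partner (2.37%), and the median distance was 140 kb. For ARID3B peaks, a KDM4C peak lay within 1 kb of 64 of 3996 (1.60%), at a median of 419 kb.

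Within the co-called pairs the deposited values of the antibodies moved together. Across the 592 pairs of edited cells, Spearman's rho was 0.93 for tags, 0.91 for fold enrichment and 0.81 for width. In control cells it was 0.89, 0.91 and 0.80. These are descriptions across pairs that share neighbourhoods and, in regions with several peaks, a peak. In the 510 regions with 1 peak of each, the ratio of ARID3B to KDM4C tags, each divided by the filtered tags of its library, had a median of 0.904 in edited cells. It exceeded 2 in 15 regions and was under 0.5 in 16. Over the 442 such regions of control cells the median was 0.942.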

How the data were processed

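Peaks were called by the authors with MACS 1.4.2 in each library alone, without a control file, at a p-value cutoff of 1e-05, with a local window of 10 kb and at most 1 tag per position, per the file headers. The submitters' processing notes list the build GRCh37, bcl2fastq 2.1.5 and BWA 0.7.12. The deposited tag counts are whole and not normalized, the deposited score is 10 times the negative log10 of the p-value of each peak, and the deposited fold enrichment is a ratio to local background. Start and end were used as given, and summits were counted from the start.

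Overlaps, distances and intervals were computed with Python 3.11.15, pandas 2.3.3 and scipy 1.17.1, and the overlap step was tested on simulated data. Groups came from the sample titles. Centromere gaps and chromosome lengths are those of GRCh37 as known for that build, not from a supplied file. As a check, no peak reached more than 21 bp into a centromere gap and none passed a chromosome end. This check cannot show a gap that was set too small, and other unsequenced stretches were left out. A gene annotation of that build was not used here, so genes are not named.

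The members, the limits (score classes, 5 Mb, 100 kb, 50 bp) and the rule for named regions were chosen with earlier results of these data known. The rule took the leading regions by the lower fold enrichment, away from centromeres, without control peaks and shared in control cells only. It also took the leading peaks without a partner, the extreme distances and widths and the longest runs. The class tables within position and score, the nearest-peak distances and the chromosome ends were added after the data were seen. Values under other thresholds, overlaps, chromosomes and list lengths are given in the closing section.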

Additional observations from a re-analysis of the deposited data

How the results depend on the processing

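For 9 results, 68 values under other settings were computed, and 36 stayed within the counting interval of the reported value, or within 1.5 times for the number of regions. No paired analysis was possible because each group has 1 library. With a score of at least 60 in every list, 59.1% of KDM4C and 25.8% of ARID3B peaks were co-called, 70.7% of pairs had summits within 50 bp and 70.9% of regions were co-called in control cells too. At 100 these were 86.7%, 61.3%, 70.1% and 76.9%, with 225 regions, a median distance of 15 bp, 54.2% of regions within 5 Mb of a gap and 54.2% with a neighbour within 100 kb. With 100 bp to each side of the summit in place of the called width, 27.9% of KDM4C and 10.7% of ARID3B peaks were co-called, at a median of 15 bp and with 80.7% within 50 bp, and 58.8% of regions were co-called in control cells. With chromosomes X and Y, the shares were 35.2% and 14.3%, and 68.5% of regions had a neighbour. Without peaks within 5 Mb of a gap, they were 21.9% and 7.72% over 279 regions, at a median of 27 bp, with 61.4% within 50 bp, 40.9% with a neighbour and 58.1% co-called in control cells. With lists of equal length, 28.0% of KDM4C and 29.2% of ARID3B peaks were co-called. At limits of 20 bp, 2 Mb and 10 kb, the shares of close summits, of regions near a gap and of regions with a neighbour were 50.5%, 40.5% and 42.7%. In regions with 1 peak of each antibody, chosen after seeing the data, 71.8% of pairs were within 50 bp. The causes of these moves were not tested, beyond what each construction fixes, such as fewer peaks or closer limits. The width ratio stayed within its interval under all 8 settings run for it. Peaks of about 10 tags can be missed by counting error, and depth differs between all libraries, so small differences between edited and control cells cannot be read as changes.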

Other observations

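Chromosome ends were not part of the comparisons above. In edited cells 17 KDM4C and 29 ARID3B peaks lay within 100 kb of an autosome's end. Of these, 6 KDM4C (35.3%, 14.2 to 61.7) and 5 ARID3B peaks (17.2%, 5.85 to 35.8) were co-called, in 5 regions. In control cells 9 of 17 KDM4C and 10 of 17 ARID3B peaks were, in 9 regions. The KDM4C peak on chromosome 18 from 9960 to 10333 (24 tags, score 153) began 9959 bp from the end in the assembly, with another KDM4C peak beside it and the nearest ARID3B peak at 17.5 kb. It was called with both antibodies in control cells.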
